A study of Mus musculus with 10 samples.

Results

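The 48 genes described here encode proteins of mitosis: the cyclins and kinases that drive entry, the spindle checkpoint, the anaphase machinery, kinetochore and centromere proteins, condensin, spindle assembly factors and the proteins of cytokinesis. They were chosen by name, with earlier results of these data known, and 48 of 48 were found among the 12803 genes of the table. Mitotic genes are transcribed mainly in cells that have passed the G1/S transition, and their transcripts build up towards division. Cyclin-dependent kinase 1 bound to cyclin B starts mitosis, kinetochores tie chromosomes to the spindle, and the checkpoint holds back the anaphase-promoting complex until every kinetochore is attached. Muscle stem cells of uninjured adult muscle are quiescent and enter the cell cycle when they are taken out of the muscle and cultured.

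The cells were muscle stem cells of young male C57BL/6 mice, sorted from limb muscle by flow cytometry (CD45- CD31- Sca1- VCAM+), and each library came from 1 animal. In 4 libraries the cells had spent 24 h in culture with Tubastatin A at 40 µM in DMSO; the compound inhibits HDAC6, which removes acetyl groups from tubulin. In 3 vehicle libraries they had spent 24 h in culture with an equal volume of DMSO, and 3 fresh libraries were made at 0 h, without culture. Both cultured groups were kept in Ham's F-10 medium with 10% horse serum on plates coated with extracellular matrix. Vehicle and fresh cells carry the same treatment label, so time in culture and the solvent cannot be told apart between them. The series title names the question as whether Tubastatin A keeps these cells quiescent.

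Levels are RPKM, reads per kilobase of gene length relative to the library size the authors used. A log2 change is a difference of mean log2(RPKM + 1), the group named first minus the one named second, with its standard error (SE). The adjusted p is that of the limma test with Benjamini-Hochberg adjustment over all 12803 genes, and a gene is called higher or lower at an adjusted p under 0.05. Adding 1 RPKM understates the fold change of genes near or under 1 RPKM, which is where most of these genes lay with Tubastatin A. In RNA from many cells, fewer cells that express a gene and less RNA of it per cell cannot be told apart.

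The table held 37.6M to 55.4M reads a library, recovered from the RPKM values, and no mitotic gene was without reads in any library. Of the 9 muscle stem cell markers (Pax7, Myf5, Vcam1, Itga7, Calcr, Sdc4, Cdh15, Cd34 and Cxcr4), all were measured. Their summed level was 285 to 304 RPKM with Tubastatin A, 483 to 507 RPKM with vehicle and 1990 to 2179 RPKM in fresh cells. Summed endothelial markers (9 of 9 measured) lay at 6.25 to 6.96, 3.34 to 4.55 and 47.7 to 58.4 RPKM in the same order, immune markers (4 of 9) at 2.63 to 4.26, 0.762 to 1.01 and 11.2 to 23.1 RPKM, and fibro-adipogenic progenitor markers (7 of 8) at 9.02 to 16.5, 39.8 to 47.4 and 422 to 815 RPKM. Pericyte and smooth muscle markers (6 of 6) summed to 11.5 to 62.0, 174.5 to 239 and 198 to 244 RPKM in that order. Fresh libraries therefore held the most marker RNA of endothelial, immune and fibro-adipogenic cells, and its part in the mitotic levels of fresh cells was not tested. At 0 recovered reads were Lyz2, an immune marker, and Lum, a fibro-adipogenic one, in 1 vehicle library each, and Myh11, of smooth muscle, in 2 vehicle libraries. Tubastatin A replicate 2 stood apart, with myofibre markers (7 of 8 measured) summing to 393 RPKM against 6.06 to 7.22 RPKM in the other Tubastatin A libraries, 18.4 to 26.6 RPKM with vehicle and 77.3 to 110.1 RPKM in fresh cells.

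With Tubastatin A, 47 of the 48 genes were lower than with vehicle and 1, Pttg1, was higher. Over all genes, 29.7% were called lower and 29.6% higher in this comparison. The median log2 change of the 48 genes was -2.91, beside 0.02 for all genes. All libraries of both groups were apart for every gene, 47 lower and 1 higher, whereas 33.8% of all genes were lower and 34.8% higher without overlap. On the RPKM scale the mean was 28.6-fold lower at the median gene, and 33.2-fold lower without Tubastatin A replicate 2. Aurkb, the passenger complex kinase Aurora B, was 109-fold lower, or 192-fold lower without that replicate, and Ccna2, cyclin A2, was 99.8-fold lower, or 289-fold lower without it.

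With vehicle, 46 of the 48 genes were higher than in fresh cells, Pttg1 was lower, and Ccnb2 was not called. Over all genes, 32.0% were called higher and 35.0% lower. The median log2 change was 1.68, beside -0.03 for all genes, and the median ratio of mean RPKM was 5.27. The libraries of both groups were apart for 45 genes that were higher and for Pttg1, beside 31.8% of all genes higher and 35.8% lower without overlap. Ccnb2 and Cks2 overlapped.

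With Tubastatin A, 40 of the 48 genes were also lower than in fresh cells, 1, Gtse1, was higher, and 7 were not called (Cks2, Plk1, Pttg1, Espl1, Incenp, Ncapd2 and Nusap1). Over all genes, 35.2% were called lower and 29.8% higher. The median log2 change was -0.99, beside -0.03 for all genes. Without overlap, 40 genes were lower and 1 higher, beside 33.3% and 28.0% of all genes. At the median gene the mean RPKM was 5.91-fold lower with Tubastatin A than in fresh cells. With voom on recovered reads, which does not add 1 RPKM, the median log2 changes were -4.86, 2.44 and -2.67 in Tubastatin A against vehicle, vehicle against fresh and Tubastatin A against fresh. The 3 comparisons share libraries, so their counts are not independent of each other.

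**Figure D1:**
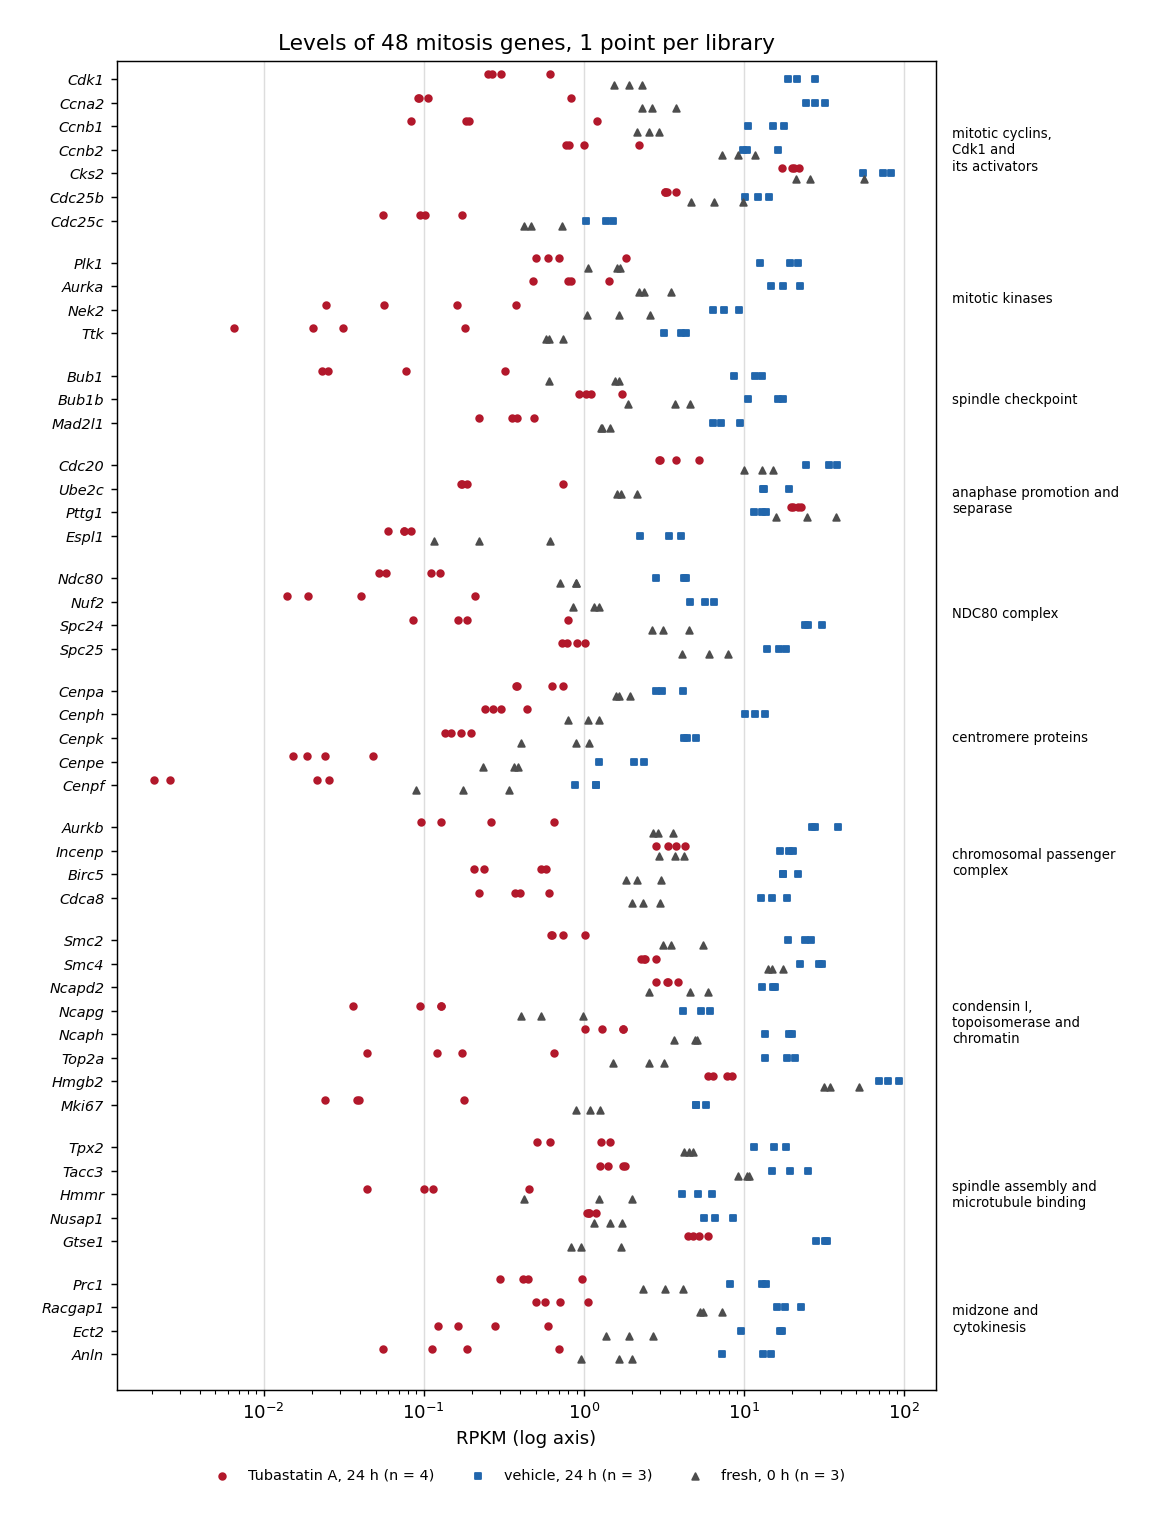
RPKM of the 48 genes on a log axis, 1 point per library, in Tubastatin A (24 h, n = 4), vehicle (24 h, n = 3) and fresh cells (0 h, n = 3), grouped by role. The Tubastatin A points lie left of the vehicle points in 47 of 48 genes and right of them for Pttg1, and most fresh points lie between both.

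Summed over the 48 genes, the level was 83.5, 99.1, 82.1 and 86.5 RPKM in the Tubastatin A libraries, against 775.5, 907.5 and 688.8 RPKM in vehicle libraries and 217.2, 270.7 and 238.9 RPKM in fresh ones. The groups did not overlap in this sum. The genes took 0.0252% to 0.0335% of the recovered reads with Tubastatin A, 0.277% to 0.381% with vehicle and 0.0561% to 0.0612% in fresh cells. Between 27 and 35 of the 48 genes were under 1 RPKM in a Tubastatin A library, against 0 or 1 in a vehicle library and 9 to 12 in a fresh one.

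Within the Tubastatin A group, replicate 2 was the highest library in 35 of 48 genes, and in 19 genes it was at least 2-fold above each of the other Tubastatin A libraries. The median gene stood at 0.771 RPKM in replicate 2 and at 0.283, 0.285 and 0.376 RPKM in replicates 1, 3 and 4. Replicate 2 was nevertheless below the lowest vehicle library in 47 genes and below the lowest fresh library in 42. This is the library with the raised myofibre markers, and it also had the highest sum of pericyte and smooth muscle markers, 62.0 RPKM against 11.5 to 11.9 RPKM in the other Tubastatin A libraries. The part of these cells in its mitotic levels was not tested. Without replicate 2, 47 genes were still lower and 1 higher than with vehicle, with a median log2 change of -2.98. Among vehicle libraries, replicate 2 was the highest in 37 genes and replicate 3 the lowest in 42, and among fresh libraries replicate 3 was the highest in 23 and replicate 2 the lowest in 30.

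**Figure D2:**
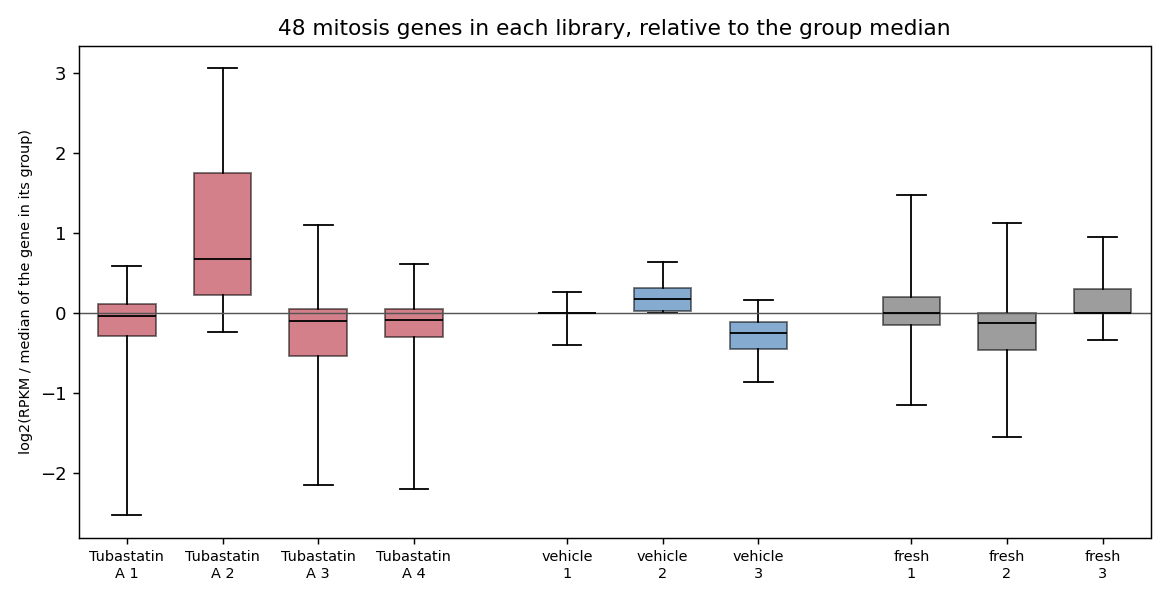
Each box shows the 48 genes in 1 library as log2 of RPKM over the gene's median in its own group (line: median; box: quartiles; whiskers: full range). Tubastatin A replicate 2 lies above its group for most genes, and vehicle replicate 3 lies below its group.

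Promoters of mitotic genes often hold a cell cycle homology region, read as TTTGAA or TTTAAA, which recruits the DREAM and MuvB complexes, and CCAAT boxes, which are bound by NF-Y. RefSeq promoters (build GRCm38.p6, 250 bases before to 50 after the start) were matched for 41 of the 48 genes, which have 46 promoters. Those of Tpx2, Incenp, Smc4, Spc24, Cdc25c, Ccna2 and Aurkb were not matched. On either strand, 58.7% of these promoters held TTTGAA, beside 17.9% of all 32851 promoters of the same length. TTTAAA, which is its own reverse complement, was found in 21.7%, beside 13.2%. CCAAT was found in 80.4%, beside 37.4%, and at least 2 CCAAT in 50%, beside 11.7%. CCAAT together with TTTGAA or TTTAAA was found in 63%, beside 10.7%. Among the 12770 promoters of genes in the table, TTTGAA was found in 11.7%, TTTAAA in 9.07% and CCAAT in 37.7%. Among these 12770, at least 2 CCAAT were found in 14.1%, and CCAAT with TTTGAA or TTTAAA in 7.36%. The motifs were searched as exact letters, and a CCAAT and a TTTGAA or TTTAAA that share a letter where they adjoin were both counted. None of the 3 was found in 13% of the 46 promoters, beside 45.7% of all promoters and 50.6% of those of genes in the table. The 6 genes without any of them were Nuf2, Nusap1, Ncaph, Tacc3, Mad2l1 and Pttg1. These are 5 genes that fell with Tubastatin A against vehicle and Pttg1, which rose. The median log2 change of Tubastatin A against vehicle was -3.03 in the 29 genes with TTTGAA or TTTAAA and -2.64 in the 12 without, and that of vehicle against fresh was 1.67 with and 1.67 without. For the 32 genes with CCAAT and the 9 without, the medians of Tubastatin A against vehicle were -2.87 and -2.65, and those of Tubastatin A against fresh -0.97 and -0.96. These differences between genes with and without a motif were not tested.

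Of the genes whose levels are described next, 6 promoters show how the motifs are laid out, from 150 bases before to 30 after the start. Capitals mark the 3 motifs, and a match on the other strand appears as its reverse complement. Cdk1 lies at chr10:69352883-69353062 on the minus strand, Ccnb1 at chr13:100786457-100786636 (minus), Ccnb2 at chr9:70421525-70421704 (minus), Plk1 at chr7:122159285-122159464 (plus), Gtse1 at chr15:85859557-85859736 (plus) and Pttg1 at chr11:43425952-43426131 (minus).
Cdk1: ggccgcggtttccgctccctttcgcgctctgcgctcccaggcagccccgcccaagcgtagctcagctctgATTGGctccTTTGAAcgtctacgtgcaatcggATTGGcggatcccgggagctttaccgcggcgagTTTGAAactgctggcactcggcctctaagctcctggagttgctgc
Ccnb1: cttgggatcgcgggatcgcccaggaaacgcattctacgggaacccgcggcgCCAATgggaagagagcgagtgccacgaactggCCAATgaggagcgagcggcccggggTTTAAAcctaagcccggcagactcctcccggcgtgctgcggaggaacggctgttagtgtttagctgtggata
Ccnb2: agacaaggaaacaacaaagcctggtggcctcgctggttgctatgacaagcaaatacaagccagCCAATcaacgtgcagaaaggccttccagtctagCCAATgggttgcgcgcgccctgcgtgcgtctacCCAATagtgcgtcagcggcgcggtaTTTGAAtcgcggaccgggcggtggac
Plk1: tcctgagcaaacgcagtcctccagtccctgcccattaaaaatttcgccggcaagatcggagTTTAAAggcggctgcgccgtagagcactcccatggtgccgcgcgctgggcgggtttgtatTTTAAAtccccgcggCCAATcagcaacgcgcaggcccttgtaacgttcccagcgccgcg
Gtse1: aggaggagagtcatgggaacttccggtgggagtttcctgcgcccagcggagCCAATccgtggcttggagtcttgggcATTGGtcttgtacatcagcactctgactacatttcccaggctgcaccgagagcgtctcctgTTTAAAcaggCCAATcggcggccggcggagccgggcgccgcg
Pttg1: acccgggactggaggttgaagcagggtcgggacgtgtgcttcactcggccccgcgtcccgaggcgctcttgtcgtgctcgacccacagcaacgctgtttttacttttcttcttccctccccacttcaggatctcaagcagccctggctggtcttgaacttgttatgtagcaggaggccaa

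The Ccnb2 window holds 3 CCAAT and 1 TTTGAA, the Gtse1 window 3 CCAAT and 1 TTTAAA, and the Cdk1 window 2 of CCAAT and 2 of TTTGAA. The printed Gtse1 window ends at 85859736, before the GENCODE M21 start of that gene at 85859745. Another Gtse1 promoter, at chr15:85859696-85859995 and not printed here, holds 1 CCAAT and 1 TTTAAA. The Pttg1 window holds none of the 3. It lies wholly inside the gene as annotated in GENCODE M21 (43420250 to 43426251), so the bases before that other start were not searched. The Mad2l1 window, not printed here, ends at 66535270, before the GENCODE M21 start of that gene at 66535390. A match describes letters and does not show binding, and the absence of a match says only that these letters are not in the window.

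Genes of mitotic entry were lower with Tubastatin A than with vehicle. Cdk1, the mitotic cyclin-dependent kinase, stood at 0.305, 0.613, 0.269 and 0.253 RPKM in the Tubastatin A libraries, against 21.4, 27.8 and 18.9 RPKM in vehicle libraries and 1.53, 2.31 and 1.90 RPKM in fresh ones. The 3 groups did not overlap, with Tubastatin A lowest and vehicle highest. Cdk1 fell by 4.11 on the log2 scale with Tubastatin A against vehicle (SE 0.16, adjusted p = 2.8e-09), rose with vehicle against fresh by 3.02 (SE 0.17, adjusted p = 2.1e-08), and was lower with Tubastatin A than in fresh cells, at -1.10 (SE 0.16, adjusted p = 6.5e-05). Ccna2, cyclin A2 of S phase and early mitosis, stood at 0.106, 0.835, 0.0920 and 0.0939 RPKM in the Tubastatin A libraries, against 27.9, 32.1 and 24.4 RPKM in vehicle libraries and 2.66, 2.31 and 3.75 RPKM in fresh ones, again with no overlap. Its log2 change with Tubastatin A against vehicle was -4.54 (SE 0.20, adjusted p = 7.9e-09). Of its exon length, 12.5% lies across Exosc9 on the opposite strand, and use of strand in the counting is not given in the sources used here. Ccnb1, the cyclin B1 that activates Cdk1 at entry, stood at 0.0836, 1.21, 0.183 and 0.191 RPKM in the Tubastatin A libraries, against 15.2, 17.7 and 10.6 RPKM in vehicle libraries and 2.94, 2.14 and 2.55 RPKM in fresh ones. Replicate 2 held several times the Ccnb1 level of the other Tubastatin A libraries and was still under every fresh library. The log2 change of Ccnb1 was -3.49 (SE 0.24, adjusted p = 2.5e-07) against vehicle, and -1.38 (SE 0.24, adjusted p = 3.2e-04) against fresh.

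Ccnb2 was not called with vehicle against fresh, and Cks2 was not called with Tubastatin A against fresh. Ccnb2, cyclin B2, stood at 0.775, 2.20, 0.996 and 0.803 RPKM in the Tubastatin A libraries, against 10.4, 16.2 and 9.88 RPKM in vehicle libraries and 11.7, 9.11 and 7.23 RPKM in fresh ones. Vehicle and fresh libraries overlapped, and the log2 change of vehicle against fresh was 0.34 (SE 0.25, adjusted p = 0.26). It becomes a call, 0.88 with an adjusted p of 0.011, where each library is scaled to the same sum of RPKM. Tubastatin A was below both, by -2.60 against vehicle and -2.26 against fresh. Cks2, a small subunit of the Cdk1 complex, had the highest Tubastatin A level of this role group, at 20.0, 17.2, 21.9 and 20.4 RPKM in the Tubastatin A libraries, against 55.6, 73.6 and 82.6 RPKM in vehicle libraries and 21.1, 56.2 and 25.8 RPKM in fresh ones. Its Tubastatin A libraries lay below every vehicle library and overlapped the fresh ones. Cks2 changed by -1.76 (SE 0.27, adjusted p = 1.4e-04) against vehicle, and its change against fresh was -0.64 (SE 0.27, adjusted p = 0.055). Without fresh replicate 1 that last change was called, at -0.91 (adjusted p = 0.009), and without fresh replicate 2, the fresh library that reached vehicle levels, it was -0.22. The phosphatases that activate Cdk1 were lower too, with Cdc25b at 3.37 ± 0.267 RPKM with Tubastatin A, 12.2 ± 2.05 RPKM with vehicle and 7.00 ± 2.62 RPKM in fresh cells (mean ± SD, n = 4, 3 and 3, as for all means here) and Cdc25c at 0.106 ± 0.0491 RPKM with Tubastatin A, 1.31 ± 0.250 RPKM with vehicle and 0.539 ± 0.170 RPKM in fresh cells. Both fell with Tubastatin A against vehicle and against fresh, and the Cdc25b difference against fresh was -0.23 and not called (adjusted p = 0.33) where each library is scaled to the same sum.

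All 4 mitotic kinases fell with Tubastatin A against vehicle and rose with vehicle against fresh. Aurka, which matures centrosomes and the spindle poles, stood at 0.830, 1.44, 0.480 and 0.797 RPKM in the Tubastatin A libraries, against 17.6, 22.3 and 14.8 RPKM in vehicle libraries and 2.38, 2.21 and 3.48 RPKM in fresh ones. Its groups did not overlap, and its log2 change was -3.35 (SE 0.19, adjusted p = 5.7e-08) against vehicle. Ttk, the kinase that starts checkpoint signalling at kinetochores, stood at 0.00652, 0.180, 0.0314 and 0.0205 RPKM in the Tubastatin A libraries, against 4.02, 4.33 and 3.17 RPKM in vehicle libraries and 0.605, 0.737 and 0.576 RPKM in fresh ones, and changed by -2.19 (SE 0.10, adjusted p = 1.2e-08). The 4 Tubastatin A values of Ttk are under 0.2 RPKM, and the lowest of them is a count of 2 reads. Plk1, the kinase of centrosome maturation and kinetochore attachment, stood at 0.598, 1.82, 0.502 and 0.697 RPKM in the Tubastatin A libraries, against 19.2, 21.6 and 12.5 RPKM in vehicle libraries and 1.68, 1.06 and 1.61 RPKM in fresh ones. Tubastatin A replicate 2 was above every fresh library for Plk1, and the other 3 were below them. Plk1 changed by -3.32 (SE 0.23, adjusted p = 2.9e-07) against vehicle, and by -0.40 (SE 0.23, adjusted p = 0.15) against fresh, which becomes a call of -0.61 (SE 0.20, adjusted p = 0.020) without Tubastatin A replicate 2. Nek2, which splits centrosomes, averaged 0.155 ± 0.159 RPKM with Tubastatin A, 7.74 ± 1.45 RPKM with vehicle and 1.77 ± 0.785 RPKM in fresh cells.

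All 3 checkpoint genes fell with Tubastatin A against vehicle and rose with vehicle against fresh. Mad2l1, which binds and inhibits Cdc20, stood at 0.222, 0.489, 0.355 and 0.382 RPKM in the Tubastatin A libraries, against 6.39, 9.38 and 7.13 RPKM in vehicle libraries and 1.31, 1.45 and 1.27 RPKM in fresh ones, with a log2 change of -2.65 (SE 0.13, adjusted p = 1.3e-08) against vehicle. Bub1, the kinase that recruits checkpoint proteins, stood at 0.0773, 0.320, 0.0254 and 0.0232 RPKM in the Tubastatin A libraries, against 11.8, 13.0 and 8.66 RPKM in vehicle libraries and 1.57, 0.607 and 1.66 RPKM in fresh ones, with a change of -3.44 (SE 0.19, adjusted p = 4.3e-08). Neither gene had overlapping groups. Bub1b, the BubR1 subunit of the inhibitor complex, averaged 1.20 ± 0.365 RPKM with Tubastatin A, 14.8 ± 3.68 RPKM with vehicle and 3.39 ± 1.39 RPKM in fresh cells. All 3 were lower with Tubastatin A than in fresh cells, by 0.78 to 1.01 log2 units, and that of Bub1b was -0.48 and not called (adjusted p = 0.098) where each library is scaled to the same sum.

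Genes of anaphase were split. Cdc20, the activator of the anaphase-promoting complex, stood at 2.96, 5.20, 3.00 and 3.78 RPKM in the Tubastatin A libraries, against 34.0, 38.3 and 24.2 RPKM in vehicle libraries and 15.3, 10.1 and 13.0 RPKM in fresh ones, with a change of -2.81 (SE 0.20, adjusted p = 3.3e-07) against vehicle. Ube2c, the ubiquitin-conjugating enzyme of that complex, stood at 0.173, 0.736, 0.187 and 0.171 RPKM in the Tubastatin A libraries, against 13.1, 19.1 and 13.3 RPKM in vehicle libraries and 1.70, 1.60 and 2.14 RPKM in fresh ones, with a change of -3.62 (SE 0.17, adjusted p = 1.5e-08). Replicate 2 was the outlying Tubastatin A library for Ube2c, as for all 11 genes with such an outlier. Ube2c shares 22.8% of its exon length with Tnnc2, a troponin gene of fast muscle fibres on the opposite strand. The part of Tnnc2 reads in the Ube2c level was not tested. Espl1, the separase that cuts cohesin, stood at 0.0751, 0.0755, 0.0833 and 0.0599 RPKM in the Tubastatin A libraries, against 4.04, 3.38 and 2.23 RPKM in vehicle libraries and 0.613, 0.116 and 0.221 RPKM in fresh ones. Its Tubastatin A libraries lay under 0.1 RPKM and below both other groups. Espl1 changed by -1.95 (SE 0.15, adjusted p = 7.0e-07) against vehicle, and its change against fresh was -0.28 (SE 0.15, adjusted p = 0.13), on a scale that 1 added RPKM compresses at such levels. On recovered reads, voom gave -1.86 (adjusted p = 0.014) for this last difference.

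Pttg1, the securin that holds separase inactive until anaphase, went the other way. It stood at 20.2, 21.7, 19.8 and 22.8 RPKM in the Tubastatin A libraries, against 11.5, 12.9 and 13.6 RPKM in vehicle libraries and 15.8, 37.4 and 24.7 RPKM in fresh ones. Every Tubastatin A library was above every vehicle library, and fresh libraries spread over a wide range that held the Tubastatin A values. Pttg1 rose with Tubastatin A against vehicle by 0.70 (SE 0.21, adjusted p = 0.014) and fell with vehicle against fresh, at -0.91 (SE 0.23, adjusted p = 0.0038). The change against fresh was -0.21 (SE 0.21, adjusted p = 0.41). Without vehicle replicate 1 the rise was 0.63 and missed the threshold (adjusted p = 0.054), and without fresh replicate 1 the change against fresh was called lower, at -0.51 (adjusted p = 0.012). Where each library is scaled to the same sum, vehicle against fresh was not called, at -0.33 (adjusted p = 0.15), and Tubastatin A against fresh was higher, at 0.48 (adjusted p = 0.034).

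**Figure D3:**
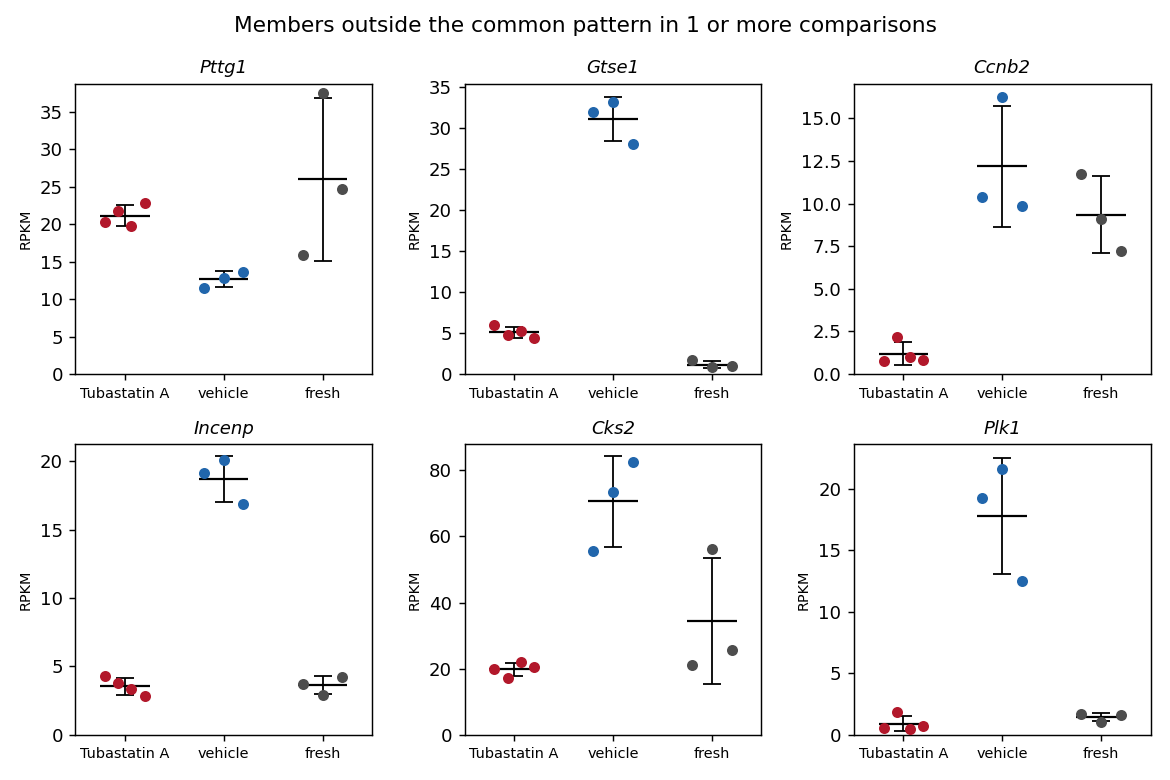
RPKM per library of 6 genes whose direction or call differs from most of their role group, 1 panel per gene with its own axis from 0, in Tubastatin A (n = 4), vehicle (n = 3) and fresh cells (n = 3); lines are group means and bars 1 SD. Pttg1 is the gene whose Tubastatin A points lie above its vehicle points, and Gtse1 is the gene with every fresh point below every Tubastatin A point.

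The NDC80 complex, which forms the microtubule binding site of the kinetochore, had 4 of 4 genes lower with Tubastatin A than with vehicle. Spc24, one of its inner subunits, stood at 0.187, 0.798, 0.0858 and 0.165 RPKM in the Tubastatin A libraries, against 25.2, 30.7 and 24.1 RPKM in vehicle libraries and 2.66, 4.55 and 3.13 RPKM in fresh ones, with a change of -4.42 (SE 0.20, adjusted p = 7.7e-09) against vehicle. Nuf2, an outer subunit, stood at 0.0404, 0.208, 0.0139 and 0.0191 RPKM in the Tubastatin A libraries, against 5.73, 6.51 and 4.61 RPKM in vehicle libraries and 0.850, 1.15 and 1.24 RPKM in fresh ones, with a change of -2.62 (SE 0.12, adjusted p = 1.1e-08). For both, replicate 2 was the highest Tubastatin A library and was below every fresh library. Ndc80 averaged 0.0869 ± 0.0370 RPKM with Tubastatin A, 3.79 ± 0.832 RPKM with vehicle and 0.829 ± 0.101 RPKM in fresh cells, and Spc25 averaged 0.858 ± 0.128 RPKM with Tubastatin A, 16.3 ± 2.23 RPKM with vehicle and 6.03 ± 1.90 RPKM in fresh cells. All 4 were also lower with Tubastatin A than in fresh cells, by 0.75 to 1.89 log2 units.

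All 5 centromere genes were lower with Tubastatin A than with vehicle and in fresh cells. Cenph, an inner kinetochore subunit, stood at 0.243, 0.302, 0.272 and 0.441 RPKM in the Tubastatin A libraries, against 10.2, 13.5 and 11.7 RPKM in vehicle libraries and 0.798, 1.06 and 1.25 RPKM in fresh ones, with a change of -3.28 (SE 0.12, adjusted p = 2.5e-09) against vehicle. Cenpk, its partner in the same complex, stood at 0.172, 0.196, 0.148 and 0.135 RPKM in the Tubastatin A libraries, against 4.40, 4.98 and 4.24 RPKM in vehicle libraries and 0.404, 1.07 and 0.892 RPKM in fresh ones, with a change of -2.25 (SE 0.12, adjusted p = 4.2e-08). Cenpa, the histone H3 variant that marks centromeres, stood at 0.378, 0.745, 0.381 and 0.630 RPKM in the Tubastatin A libraries, against 3.07, 4.15 and 2.83 RPKM in vehicle libraries and 1.93, 1.58 and 1.66 RPKM in fresh ones. Its groups did not overlap, and its changes were -1.50 (SE 0.13, adjusted p = 1.7e-06) against vehicle, 0.67 (SE 0.14, adjusted p = 0.0011) for vehicle against fresh and -0.83 (SE 0.13, adjusted p = 1.4e-04) against fresh. Cenpe, the kinetochore motor, averaged 0.0267 ± 0.0149 RPKM with Tubastatin A, 1.89 ± 0.584 RPKM with vehicle and 0.331 ± 0.0831 RPKM in fresh cells, and Cenpf, a large outer kinetochore protein, 0.0130 ± 0.0124 RPKM with Tubastatin A, 1.08 ± 0.177 RPKM with vehicle and 0.203 ± 0.128 RPKM in fresh cells. Their changes against fresh, -0.37 and -0.24, rest on low levels, and neither is called without fresh replicate 3 (-0.34 and -0.16, adjusted p = 0.058 and 0.11) or where each library is scaled to the same sum (-0.27 and -0.18, adjusted p = 0.085 and 0.080). That of Cenpf is also lost without Tubastatin A replicate 1 (-0.24, adjusted p = 0.051) or replicate 4 (-0.24, adjusted p = 0.050).

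In the chromosomal passenger complex, which corrects wrong attachments, all 4 genes fell with Tubastatin A against vehicle. Aurkb stood at 0.261, 0.649, 0.128 and 0.0958 RPKM in the Tubastatin A libraries, against 27.6, 38.8 and 26.7 RPKM in vehicle libraries and 2.71, 2.90 and 3.62 RPKM in fresh ones, with a change of -4.64 (SE 0.18, adjusted p = 2.8e-09) against vehicle. Birc5, survivin, which docks the complex on centromeres, stood at 0.207, 0.578, 0.539 and 0.237 RPKM in the Tubastatin A libraries, against 17.6, 21.8 and 17.5 RPKM in vehicle libraries and 2.16, 3.03 and 1.83 RPKM in fresh ones, with a change of -3.85 (SE 0.16, adjusted p = 4.7e-09). Cdca8, borealin, averaged 0.399 ± 0.158 RPKM with Tubastatin A, 15.4 ± 2.94 RPKM with vehicle and 2.44 ± 0.493 RPKM in fresh cells. For these 3, every Tubastatin A library was below every fresh one. Incenp, the scaffold of the complex, stood at 4.27, 3.76, 3.37 and 2.81 RPKM in the Tubastatin A libraries, against 19.1, 20.1 and 16.8 RPKM in vehicle libraries and 3.72, 2.94 and 4.23 RPKM in fresh ones. Its Tubastatin A libraries were below every vehicle library and overlapped the fresh ones, with changes of -2.12 (SE 0.14, adjusted p = 2.0e-07) against vehicle and -0.03 (SE 0.14, adjusted p = 0.89) against fresh. That last value was 0.53 (adjusted p = 0.0098) where each library is scaled to the same sum.

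Genes that fold and separate chromosomes fell, with 8 of 8 lower against vehicle. Mki67, the Ki-67 protein that coats mitotic chromosomes and marks cycling cells, stood at 0.0382, 0.178, 0.0395 and 0.0240 RPKM in the Tubastatin A libraries, against 5.78, 5.04 and 5.00 RPKM in vehicle libraries and 1.25, 0.899 and 1.09 RPKM in fresh ones. The groups did not overlap, and its log2 change was -2.55 (SE 0.10, adjusted p = 3.2e-09) against vehicle, 1.59 (SE 0.11, adjusted p = 9.5e-08) for vehicle against fresh and -0.96 (SE 0.10, adjusted p = 4.7e-06) against fresh. Smc4, an ATPase core subunit of condensin, stood at 2.28, 2.82, 2.37 and 2.40 RPKM in the Tubastatin A libraries, against 30.5, 29.2 and 22.3 RPKM in vehicle libraries and 14.9, 14.0 and 17.5 RPKM in fresh ones, with a change of -3.02 (SE 0.13, adjusted p = 6.7e-09). Its groups did not overlap. Smc2, its partner, averaged 0.751 ± 0.180 RPKM with Tubastatin A, 23.0 ± 3.84 RPKM with vehicle and 4.04 ± 1.29 RPKM in fresh cells. Of the condensin I subunits, Ncapg averaged 0.0967 ± 0.0433 RPKM with Tubastatin A, 5.21 ± 1.01 RPKM with vehicle and 0.647 ± 0.307 RPKM in fresh cells and Ncaph 1.46 ± 0.368 RPKM with Tubastatin A, 17.6 ± 3.49 RPKM with vehicle and 4.58 ± 0.782 RPKM in fresh cells. Ncapd2 stood at 3.35, 3.89, 3.31 and 2.83 RPKM in the Tubastatin A libraries, against 15.2, 15.6 and 13.0 RPKM in vehicle libraries and 5.92, 2.53 and 4.62 RPKM in fresh ones. It was below vehicle in every Tubastatin A library, with a change of -1.85 (SE 0.20, adjusted p = 8.2e-06), and overlapped fresh, with a change of -0.25 (SE 0.20, adjusted p = 0.28) that becomes a call of -0.53 (adjusted p = 0.0054) without fresh replicate 2. Top2a, which untangles DNA, averaged 0.248 ± 0.276 RPKM with Tubastatin A, 17.6 ± 3.69 RPKM with vehicle and 2.41 ± 0.828 RPKM in fresh cells. Hmgb2, a chromatin protein abundant in dividing cells, had the highest vehicle mean of the 48 genes, at 7.13 ± 1.17 RPKM with Tubastatin A, 80.2 ± 11.6 RPKM with vehicle and 39.4 ± 11.2 RPKM in fresh cells.

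Of the spindle assembly genes, Gtse1 was higher with Tubastatin A than in fresh cells. Tacc3, which stabilises spindle microtubules, stood at 1.41, 1.76, 1.26 and 1.79 RPKM in the Tubastatin A libraries, against 19.2, 25.0 and 15.0 RPKM in vehicle libraries and 10.5, 9.16 and 10.7 RPKM in fresh ones, with a change of -3.00 (SE 0.16, adjusted p = 3.2e-08) against vehicle. Gtse1, a microtubule-binding protein that also acts on p53 in G2, stood at 5.97, 4.81, 5.22 and 4.43 RPKM in the Tubastatin A libraries, against 31.9, 33.1 and 28.0 RPKM in vehicle libraries and 1.70, 0.827 and 0.963 RPKM in fresh ones. Gtse1 groups did not overlap in any pair, and their order was vehicle, Tubastatin A, fresh from high to low. Gtse1 changed by -2.39 (SE 0.15, adjusted p = 1.1e-07) against vehicle and by 1.51 (SE 0.15, adjusted p = 3.4e-06) against fresh, and vehicle against fresh was 3.91 (SE 0.16, adjusted p = 2.1e-09), the largest of the 48 genes in that comparison. Nusap1, which bundles spindle microtubules, stood at 1.19, 1.04, 1.07 and 1.08 RPKM in the Tubastatin A libraries, against 6.60, 8.52 and 5.65 RPKM in vehicle libraries and 1.45, 1.16 and 1.74 RPKM in fresh ones. Its Tubastatin A libraries were below vehicle, at -1.90 (SE 0.13, adjusted p = 3.0e-07), and overlapped fresh, at -0.22 (SE 0.13, adjusted p = 0.18). Tpx2, the activator of Aurka at the spindle, averaged 0.963 ± 0.471 RPKM with Tubastatin A, 15.1 ± 3.39 RPKM with vehicle and 4.51 ± 0.283 RPKM in fresh cells, and Hmmr, a spindle pole protein, 0.177 ± 0.185 RPKM with Tubastatin A, 5.19 ± 1.10 RPKM with vehicle and 1.22 ± 0.781 RPKM in fresh cells. Hmmr was called lower against fresh although 1 fresh and 1 Tubastatin A library overlapped.

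All 4 genes of the midzone and cytokinesis were lower with Tubastatin A than with vehicle and in fresh cells. Racgap1, a subunit of centralspindlin, stood at 0.707, 1.06, 0.502 and 0.576 RPKM in the Tubastatin A libraries, against 18.0, 22.6 and 16.0 RPKM in vehicle libraries and 5.56, 5.32 and 7.31 RPKM in fresh ones, with a change of -3.54 (SE 0.16, adjusted p = 8.7e-09) against vehicle. Ect2, the exchange factor that activates RhoA at the cell equator, stood at 0.164, 0.597, 0.123 and 0.277 RPKM in the Tubastatin A libraries, against 17.4, 16.7 and 9.57 RPKM in vehicle libraries and 1.90, 1.38 and 2.69 RPKM in fresh ones, with a change of -3.56 (SE 0.21, adjusted p = 8.2e-08). Their groups did not overlap. Prc1, which crosslinks midzone microtubules, averaged 0.534 ± 0.298 RPKM with Tubastatin A, 11.6 ± 3.00 RPKM with vehicle and 3.25 ± 0.915 RPKM in fresh cells, and Anln, anillin of the contractile ring, 0.263 ± 0.295 RPKM with Tubastatin A, 11.8 ± 3.97 RPKM with vehicle and 1.53 ± 0.525 RPKM in fresh cells.

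**Figure D4:**
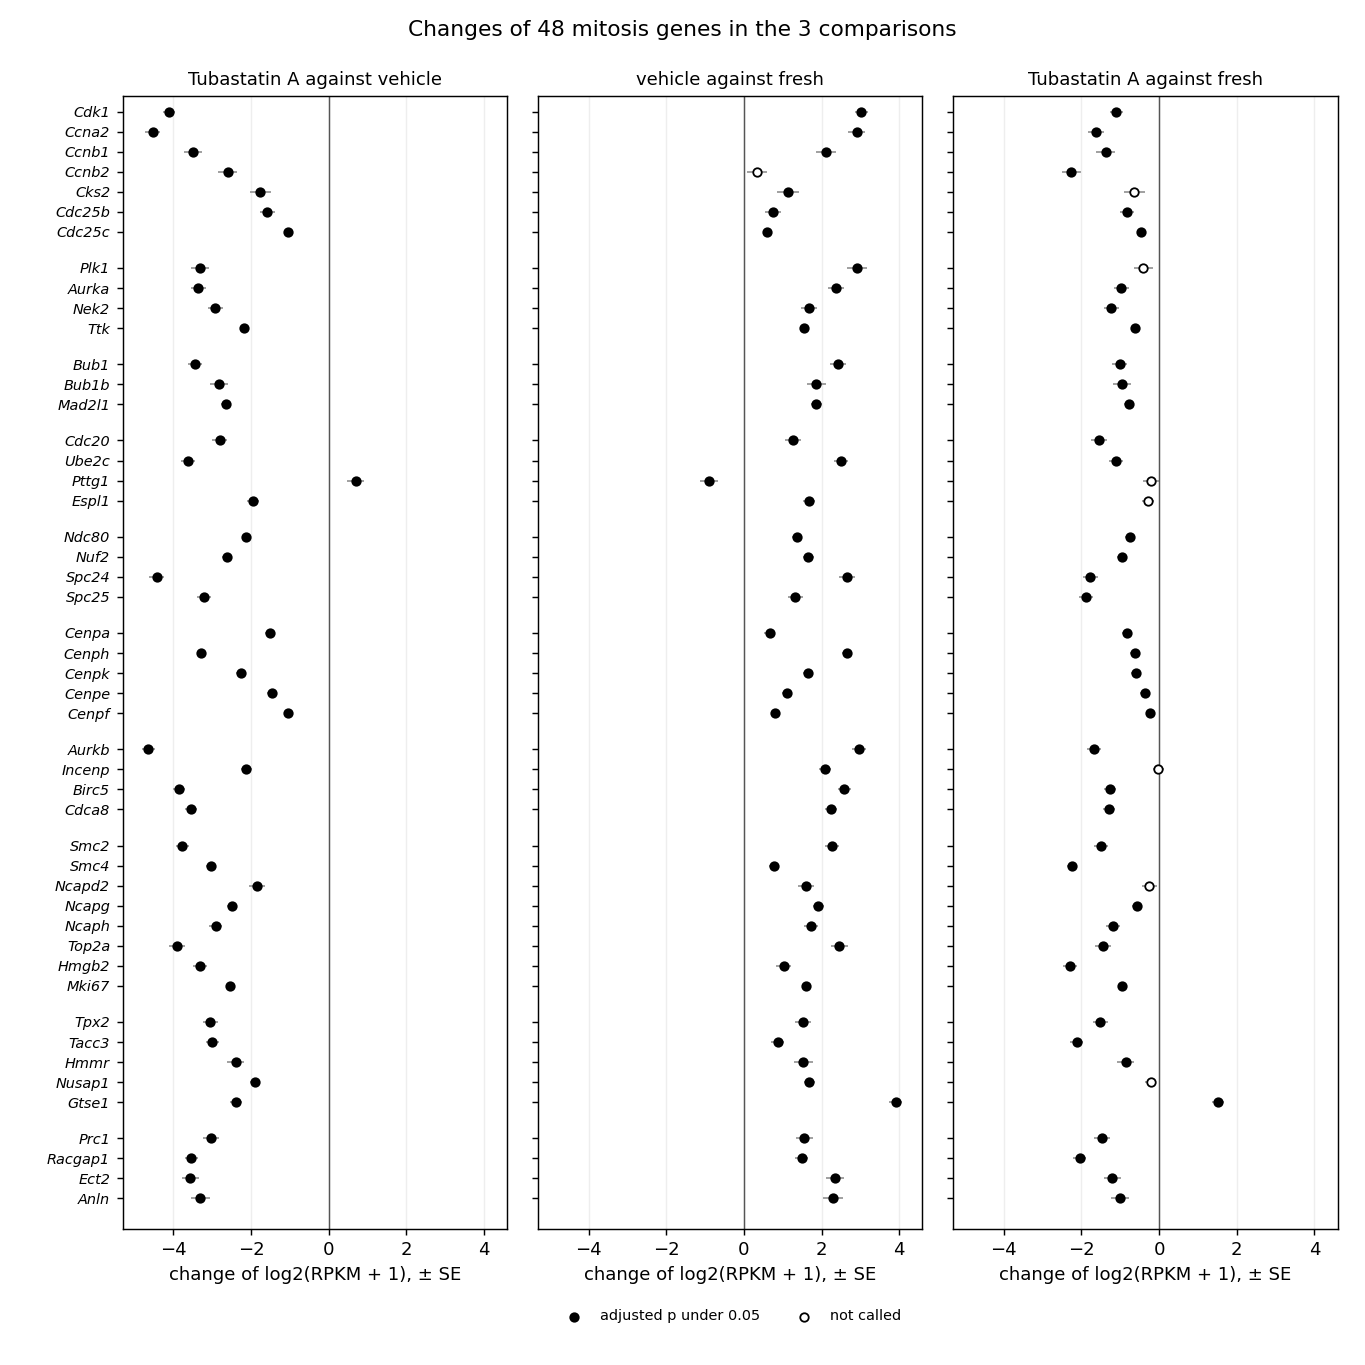
Log2 change with its standard error for each of the 48 genes in Tubastatin A against vehicle, vehicle against fresh and Tubastatin A against fresh (filled points: adjusted p under 0.05; open points: not called). In the first panel every gene but Pttg1 lies left of 0, and in the third panel Gtse1 lies right of 0 and 7 genes are not called.

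Other genes of the same processes were counted for comparison, and the counts stand beside the shares of all genes given above: 29.7% lower and 29.6% higher with Tubastatin A than with vehicle, and 35.2% lower and 29.8% higher than in fresh cells. Of 30 further kinetochore subunits measured (of 31 in the list), 26 were lower with Tubastatin A than with vehicle and 2 higher, with a median log2 change of -1.99, and 18 were lower and 6 higher than in fresh cells. Oip5, which loads Cenpa, averaged 0.523 RPKM with Tubastatin A, 11.4 RPKM with vehicle and 0.703 RPKM in fresh cells. Cenpm, an inner kinetochore subunit, averaged 0.706 RPKM with Tubastatin A, 23.7 RPKM with vehicle and 3.33 RPKM in fresh cells. Both fell with Tubastatin A against vehicle, by -3.03 and -3.86. Zwint, which links the kinetochore to the dynein adaptors and is also abundant in neurons, was higher with Tubastatin A than in both other groups, at 88.4 RPKM with Tubastatin A, 42.8 RPKM with vehicle and 26.9 RPKM in fresh cells. Its change was 1.03 (SE 0.29, adjusted p = 0.0091) against vehicle and 1.84 (SE 0.29, adjusted p = 1.5e-04) against fresh. Zw10, a dynein adaptor that also acts in membrane traffic, was higher as well, at 0.40 against vehicle, though not without vehicle replicate 3 (0.27, adjusted p = 0.13) or without Tubastatin A replicate 3 or 4 (both 0.38, adjusted p = 0.054 and 0.058). The other 4 that were higher than in fresh cells were Cenpt, Mis12, Ska2 and Bub3.

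Other lists hold genes with roles outside division. Of 15 subunits and activators of the anaphase-promoting complex, 6 were lower with Tubastatin A than with vehicle, 0 higher and 9 not called, with a median of -0.27, and Anapc11, its RING subunit, had one of the 2 lowest p, at 9.13 RPKM with Tubastatin A, 23.1 RPKM with vehicle and 17.0 RPKM in fresh cells. Anapc15, the subunit that frees the checkpoint complex, averaged 0.260 RPKM with Tubastatin A, 2.15 RPKM with vehicle and 0.451 RPKM in fresh cells. With libraries scaled to the same sum, Anapc2 (0.39, adjusted p = 0.014) and Anapc16 (0.36, adjusted p = 0.036) were higher than with vehicle. Anapc2 was also called higher with libraries centred to the same median (0.30, adjusted p = 0.038). It was called in a fit on Tubastatin A and vehicle alone (0.27, adjusted p = 0.011). Leaving out fresh replicate 1 or 2 or Tubastatin A replicate 3 called it too (adjusted p = 0.020 to 0.040). Of 16 genes of cohesin and its regulators, 10 were lower and 3 higher with Tubastatin A than with vehicle, with a median of -0.50. Of the lower ones, Smc1a (-0.36) and Stag2 (-0.44) were not called with libraries scaled to the same sum (adjusted p = 0.075 for each). Stag2 was also not called without vehicle replicate 1 (adjusted p = 0.084) or 2 (adjusted p = 0.058). Cdca5, sororin, and Sgo1, shugoshin, which protect cohesion in dividing cells, changed by -3.96 and -2.81. Wapl, which releases cohesin from chromatin, was higher with Tubastatin A, at 34.2 RPKM with Tubastatin A, 17.6 RPKM with vehicle and 28.6 RPKM in fresh cells, a change of 0.92 (SE 0.12, adjusted p = 5.6e-05) against vehicle. The other 2 that were higher were Mau2, a cohesin loader, and Esco1, a cohesin acetyltransferase.

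All 3 subunits of condensin II were lower with Tubastatin A than with vehicle, Ncapg2 by -2.67, Ncapd3 by -2.13 and Ncaph2 by -0.54. Ncaph2 was higher than in fresh cells. Of 12 regulators of mitotic entry, 11 were lower than with vehicle and 1, Ensa, which inhibits the phosphatase PP2A, was higher, at 0.53. Wee1, the kinase that restrains Cdk1, averaged 1.80 RPKM with Tubastatin A, 27.5 RPKM with vehicle and 32.1 RPKM in fresh cells, with a change of -3.34 (SE 0.11, adjusted p = 1.8e-09) against vehicle. Haspin, the kinase that marks centromeric histone H3, averaged 0.246 RPKM with Tubastatin A, 7.83 RPKM with vehicle and 0.431 RPKM in fresh cells. Cdc25a, a phosphatase that acts on Cdk2 and Cdk1, was lower than with vehicle and higher than in fresh cells, at 5.70 RPKM with Tubastatin A, 11.0 RPKM with vehicle and 1.92 RPKM in fresh cells.

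Of 12 genes for transcription in G2 and M, 7 were lower than with vehicle and 2 higher. Mybl2, B-Myb, and Foxm1, the factors that switch mitotic genes on, fell together. Mybl2 stood at 0.142, 0.154, 0.162 and 0.0522 RPKM in the Tubastatin A libraries, against 19.2, 22.1 and 19.6 RPKM in vehicle libraries and 0.703, 0.826 and 1.40 RPKM in fresh ones, with a change of -4.24 (SE 0.13, adjusted p = 8.6e-10). Foxm1 stood at 0.0613, 0.218, 0.0768 and 0.0631 RPKM in the Tubastatin A libraries, against 8.91, 9.54 and 6.98 RPKM in vehicle libraries and 2.25, 0.747 and 1.72 RPKM in fresh ones, with a change of -3.09 (SE 0.18, adjusted p = 7.5e-08). Lin37 and Lin52, subunits of the MuvB core, were higher than with vehicle, by 0.90 and 0.79. E2f4, the E2F of the repressive DREAM complex, was lower, at 49.3 RPKM with Tubastatin A, 112 RPKM with vehicle and 38.2 RPKM in fresh cells. Of the 6 MCM helicase genes, which act in DNA replication before mitosis, 6 were lower than with vehicle, with a median of -3.36, and 6 were higher with vehicle than in fresh cells, with a median of 3.05. Mcm5 averaged 1.86 RPKM with Tubastatin A, 119 RPKM with vehicle and 10.9 RPKM in fresh cells, and Mcm3 averaged 10.3 RPKM with Tubastatin A, 174 RPKM with vehicle and 18.0 RPKM in fresh cells.

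**Figure D5:**
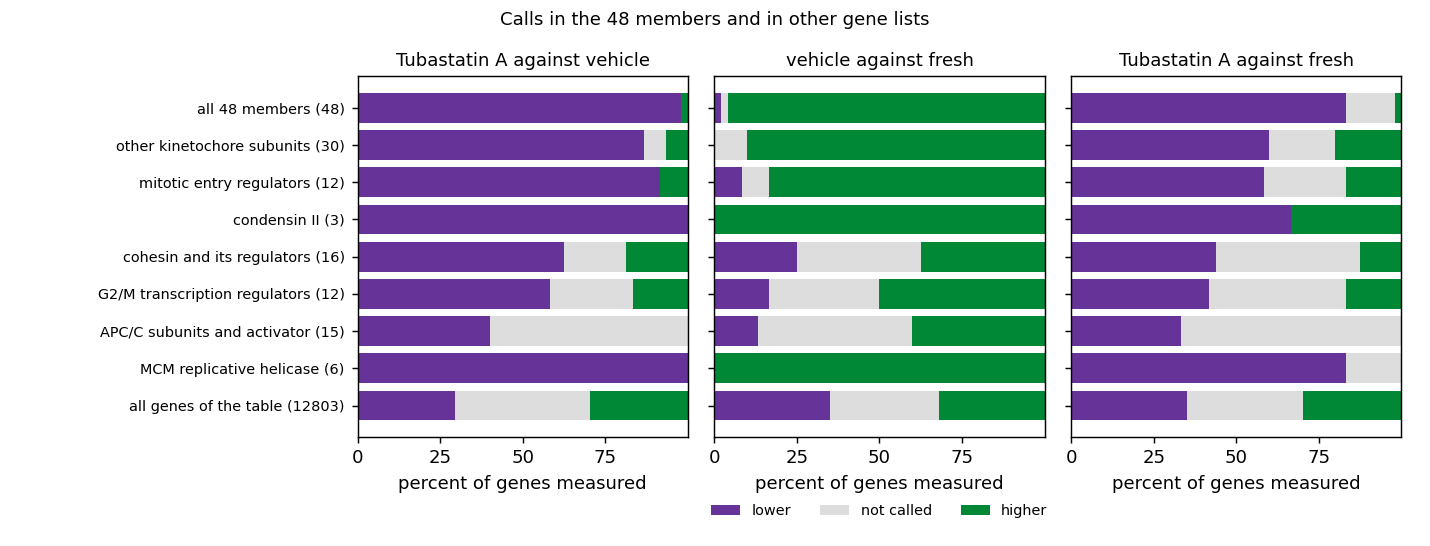
Share of the measured genes of each list that were called lower, not called or called higher (adjusted p under 0.05), with the number of genes in brackets, in the 3 comparisons. The 48 mitotic genes are nearly all lower in the first panel and nearly all higher in the second, and all genes of the table stand at the bottom.

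Of the same lists, with vehicle against fresh, 27 of the 30 kinetochore subunits, 10 of the 12 entry regulators, 3 of 3 condensin II genes, 6 of 12 transcription genes, 6 of 15 anaphase-promoting complex genes and 6 of 16 cohesin genes were higher, beside 32.0% of all genes. Lower in that comparison, beside 35.0% of all genes, were 0, 1, 0, 2, 2 and 4 genes in the same order, namely Ensa, Lin52, Nfyb, Anapc2, Anapc16, Smc1a, Stag2, Wapl and Nipbl. Of these 9, Ensa and Nfyb were still called lower where each library is scaled to the same sum, whereas Anapc2, Anapc16 and Stag2 turned to above 0. With 1 library left out, the adjusted p reached 0.095 for Anapc2, 0.06 for Anapc16, 0.067 for Nipbl and 0.2 for Stag2. Among those that were higher, Zwint was not called without fresh replicate 1 (0.36, adjusted p = 0.098), without fresh replicate 3 (adjusted p = 0.068), Tubastatin A replicate 3 (adjusted p = 0.050) or any 1 vehicle library (adjusted p = 0.061 to 0.083), or in a fit on these 2 groups alone (adjusted p = 0.10). Anapc11 was not called without fresh replicate 1 or 3 or vehicle replicate 2 or 3 (adjusted p = 0.061 to 0.075), nor in that fit (adjusted p = 0.065). With Tubastatin A against fresh, 7 of 12 entry regulators were lower and 2 higher, 5 and 2 of 12 transcription genes, 2 and 1 of 3 condensin II genes, 5 and 0 of 15 anaphase-promoting complex genes, 7 and 2 of 16 cohesin genes, and 5 and 0 of 6 MCM genes, beside 35.2% and 29.8% of all genes. Arpp19, 1 of the 2 higher entry regulators, was not called in a fit on these 2 groups alone (adjusted p = 0.080) or with 1 library left out, in 8 of the 10 cases (adjusted p = 0.057 to 0.13). Anapc15, 1 of the 5 lower, was not called in 9 of those 10 cases (adjusted p = 0.051 to 0.17), or where each library is scaled to the same sum (-0.02, adjusted p = 0.87), which also ended the call of Anapc11 (-0.15, adjusted p = 0.24). That scaling ended the lower calls of Stag2 (-0.33, adjusted p = 0.15), Ncapd3 (-0.46, adjusted p = 0.085) and Mcm3 (-0.08, adjusted p = 0.6) too. Under it Wapl, Lin52, Anapc2 and Anapc16 were called higher, at 0.95, 0.85, 0.65 and 0.37.

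The split between higher and lower genes changed with the scaling of the libraries. Where each library is scaled to the same sum of RPKM, the median log2 change of all genes was 0.09, 0.34 and 0.43 in Tubastatin A against vehicle, vehicle against fresh and Tubastatin A against fresh, beside 0.02, -0.03 and -0.03 on the deposited scale. The medians of the 48 genes were -2.93, 2.08 and -0.72 under it. Under it, 47 of the 48 genes were lower with Tubastatin A than with vehicle and 1 higher, 47 were higher with vehicle than in fresh cells, and 36 were lower and 3 higher (Gtse1, Incenp and Pttg1) with Tubastatin A than in fresh cells. Over all genes, 4096 were higher and 4484 lower with vehicle than in fresh cells, beside 6280 and 2894 under that scaling, and 3811 were higher and 4503 lower with Tubastatin A than in fresh cells, beside 7006 and 2486.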

How the data were processed

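RNA was sequenced in 10 libraries (4 Tubastatin A, 3 vehicle, 3 fresh), with cDNA made by SMART-Seq v4, per the labels' protocols. The deposited table holds RPKM values that the authors computed for 12803 genes; per the submitters' processing notes the tools included STAR, featureCounts (Subread), Trim Galore and edgeR, with build mm10, and no versions. Handling of multi-mapping reads and strand is not given in the sources used here, so reads of overlapping genes, and of Ccnb1 and Ccnb2 and their annotated pseudogenes, may not be separable.

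RPKM times GENCODE M21 exon length over 1 factor per library gave counts that were whole in all 10 libraries (tolerance 0.05 reads) for 12172 genes (95.1%). Reads in the table over the scaled library size were 0.831 to 0.93 in cultured libraries and 1.40 to 1.41 in fresh ones, so that RPKM are not relative to all reads. One read in 1 kb is 0.016 to 0.0339 RPKM. Zeros had been replaced by a floor per gene.

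Values were fitted as log2(RPKM + 1) with limma 3.58.1 in R 4.3.3, with a variance trend, 1 model for the 3 groups and no filter. In simulated data with 12803 genes, 83%, 81% and 83% of changes of 1 log2 unit were recovered in Tubastatin A against vehicle, vehicle against fresh and Tubastatin A against fresh, with 4.23%, 6.74% and 3.19% of calls false. The changed genes were drawn only from those with a mean log2(RPKM + 1) above 1, so the recovery rates do not cover genes with a lower mean. Far fewer genes were changed than were called in the data, and the simulated noise was normal with the same spread in all groups. Alternatives were 2 scalings, pseudocounts of 0.1 and 5 RPKM, a mean of at least 1 RPKM, fits on only the groups compared, a replicate block, each library left out, and voom, from limma, on the recovered reads (12363 genes).

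The genes and lists were chosen with earlier results of these data known. Values in every library are given for the 2 lowest p per role group in Tubastatin A against vehicle, for Mki67, Cdk1, Ccnb1, Aurkb and Cenpa, and for genes that differ in call or direction from most of their role group. Of other lists, the 2 lowest p and genes called against most of their list are named. The replicates are separate animals, per the labels. Python 3.11.15 was used for tables and figures.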

Additional observations from a re-analysis of the deposited data

Results flagged for a closer look

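In 11 of the 48 genes, the highest Tubastatin A library was separated from the other 3 by a gap of at least 0.829 of the whole range of the group, the 95% critical value of Dixon's test for 4 samples. In 11 of 11 this was Tubastatin A replicate 2. Its levels were 0.613 RPKM for Cdk1, 0.835 RPKM for Ccna2, 1.21 RPKM for Ccnb1, 2.20 RPKM for Ccnb2 and 1.82 RPKM for Plk1. The medians of the group were 0.287, 0.0999, 0.187, 0.899 and 0.647 RPKM for these genes. In the same library Ttk stood at 0.180 RPKM, Ube2c at 0.736 RPKM, Nuf2 at 0.208 RPKM, Spc24 at 0.798 RPKM, Mki67 at 0.178 RPKM and Hmmr at 0.452 RPKM. Both the highest and the lowest library were examined, and chance gives such a gap at either end in about 1 in 20 groups. That rate holds for normal values, which was not tested for these RPKM, and genes of 1 library are not independent of each other. The same library held 393 RPKM of summed myofibre markers, and the part of this RNA in its mitotic levels was not tested. Groups of 3 libraries were not examined in this way.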

How the results depend on the processing

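Lower mitotic genes with Tubastatin A against vehicle numbered 47 under every alternative that kept the 48 genes in the test, and 44 where genes with a mean under 1 RPKM were left out. Leaving out each library in turn gave 47 to 47 lower and 0 to 1 higher in that comparison (0 without vehicle replicate 1), 46 to 46 higher and 1 to 1 lower with vehicle against fresh, and 38 to 42 lower and 1 to 1 higher with Tubastatin A against fresh. Over all genes it gave 3233 to 4192 higher and 3323 to 4149 lower, 3769 to 4232 higher and 4099 to 4680 lower, and 3511 to 3907 higher and 4218 to 4659 lower, in the same order of comparisons. Scaling each library to the same sum of RPKM gave 0 mitotic genes lower and 6280 genes higher and 2894 lower with vehicle against fresh, and 3 mitotic genes higher and 7006 genes higher and 2486 lower with Tubastatin A against fresh. Under this scaling the log2 changes of vehicle against fresh turned to 0.265 for Anapc2, 0.00479 for Anapc16, 0.104 for Stag2 and 0.361 for Wee1, and those of Tubastatin A against fresh to 0.484 for Pttg1, 0.530 for Incenp, 0.653 for Anapc2 and 0.370 for Anapc16; the cause was not tested. With Tubastatin A against fresh, a pseudocount of 5 RPKM ended the calls of Cenpe, Cenpf, Ncapg and Anln, and one of 0.1 RPKM added Cks2 and Espl1. Voom, chosen after seeing the data, called 41 mitotic genes lower there. The deviations of same-numbered libraries from their group means correlated at 0.0342 to 0.328, -0.168 to 0.329 and -0.0854 to 0.2 in the 3 comparisons. Differently numbered libraries were not compared, so these values do not settle whether the numbers mark pairs. With a replicate block, 47 mitotic genes were lower and 1 higher, 46 higher and 1 lower, and 39 lower and 1 higher, and 3572 genes were lower and 3564 higher with Tubastatin A against vehicle. Of the named genes, the block ended the calls of Zw10 (0.38, adjusted p = 0.071) and Stag2 (-0.52, adjusted p = 0.054) with Tubastatin A against vehicle, of Stag2 (-0.45, adjusted p = 0.078) with vehicle against fresh, and of Cenpf (-0.24, adjusted p = 0.077), Anapc15 (-0.21, adjusted p = 0.098) and Arpp19 (0.27, adjusted p = 0.074) with Tubastatin A against fresh. Depth limits the lowest levels: 2 to 5 mitotic genes had under 10 reads in Tubastatin A replicates 1, 3 and 4.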
